A study of Homo sapiens with 24 samples.

Results

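Across the 5 H1299 clones that stably express a Δ133p53 isoform, the 13 genes described here were at least 4 times as abundant as in vector control cells in every clone. These genes were chosen by that measured ratio: a mean of at least 0.5 CPM (the reads of a gene per 1000000 counted reads of its library) in each of the 5 clones, and each clone mean at least 4 times the control mean. Of 60563 genes in the deposited counts, 24 met these values, and 11 of them were set aside, which left 13. They were 9 protein-coding genes (BASP1, GAP43, LRRC4C, ERC2, PTCHD1, WNT7B, RSPO4, COL4A6 and CDYL2) and 4 long noncoding RNAs (GDNF-AS1 and 3 that have only an Ensembl identifier). They lay on 9 chromosomes.

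The H1299 line derives from a human non-small cell lung carcinoma and, per the study, lacks p53. RNA was sequenced from H1299 vector control cells, from 3 clonal cell lines expressing Δ133p53α (Δ133p53α1, Δ133p53α2 and Δ133p53α8) and from 2 clonal cell lines expressing Δ133p53β (Δ133p53β5 and Δ133p53β10). Each line had 4 libraries, 24 in all. The control cells carried the vector only, and the clones a plasmid for their isoform. Each clonal cell line is a single clone, so the isoform and the clone can be told apart only as far as clones of an isoform are alike, and the control is a single line as well. The sources used here do not say whether the libraries of a line came from separate cultures, so p-values measure the spread between these libraries, which may be technical.

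The Δ133p53 isoforms are short forms of p53 that lack the transactivation domains and the first part of the DNA-binding domain. Δ133p53α keeps the long C-terminus of p53, and Δ133p53β ends in a short alternative one. Several of the 13 genes are best known from the nervous system, where BASP1 and GAP43 act at the growth cone and LRRC4C and ERC2 act at synapses, while WNT7B and RSPO4 encode secreted proteins of the Wnt pathway and COL4A6 encodes a chain of basement membrane collagen.

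Between 21531599 and 25381731 reads were counted per library. The label of 1 library names Δ133p53β10, and its column in the counts names Δ133p53β5 replicate 4. It was counted as Δ133p53β5 replicate 4. With it left out the same 13 genes met the rule, and with it in Δ133p53β10 there were 14, all 13 among them. The libraries also fell into 2 sets of 12 by the sign of the rank correlation across genes between a gene's deviation from its mean level and its exon length, from 0.244 to 0.377 in the positive set and from -0.342 to -0.138 in the negative set. Each line had 1 library in one set and 3 in the other, and control, Δ133p53α2 and Δ133p53α8 had 3 in the positive set. Of the markers of the carcinoma epithelium, KRT8 and KRT18 were abundant in every library (518 CPM or more), while EPCAM had at most 5 reads, KRT19 at most 4 and CDH1 at most 1. Of the mesenchymal markers, VIM was at 1889 CPM or more in every library. The others were far lower, with lowest libraries at 12.8 CPM for CDH2, 5.98 CPM for ZEB1 and 1.58 CPM for FN1. Summed markers of other cell types were low, with 5 fibroblast genes at 0.861 to 3.41 CPM per library (PDGFRB and COL1A1 up to 47 and 41 reads, LUM at 0), 4 endothelial genes at 0.197 to 2.29 CPM (KDR up to 27 reads) and 5 leukocyte genes at 0.0455 to 0.514 CPM (CD14 up to 13 reads, PTPRC and CD3E at 0).

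**Figure D1:**
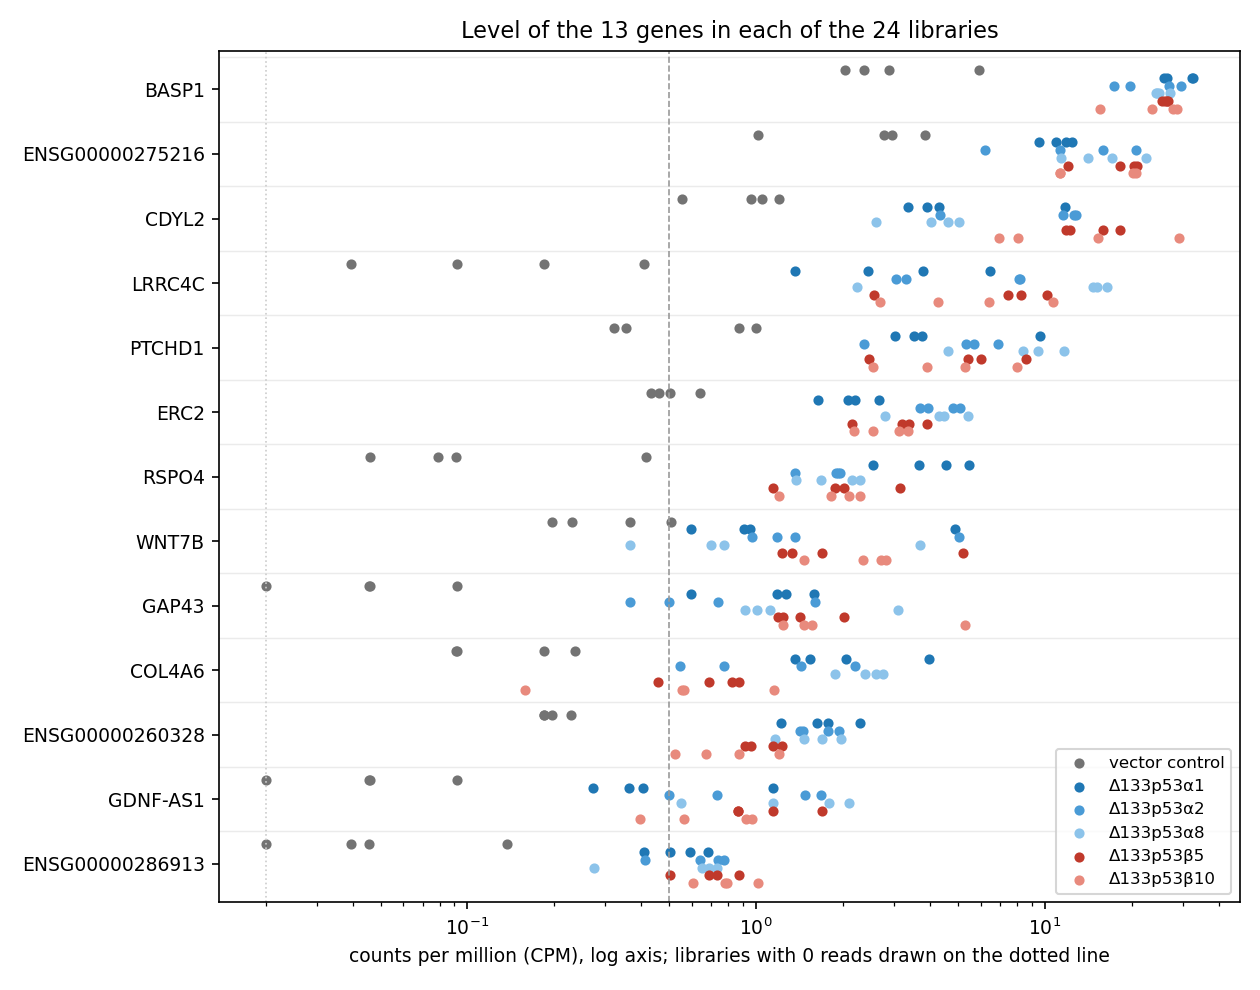
Level of each of the 13 genes in the 24 libraries, in CPM on a log axis, with 1 point per library and 1 colour per line. The dashed line marks 0.5 CPM, and libraries with 0 reads are drawn on the dotted line. All 20 clone points lie to the right of the 4 control points except in WNT7B and COL4A6. The rule chose genes with clone means far above control, so this separation is a description and not a result.

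The 13 genes were low in control cells, and 11 of them had a control mean under 1 CPM. Over genes and clones, the median ratio of clone mean to control mean was 8.83, or 7.93 with the 3 genes that control libraries hold at 3 reads or fewer set at their lower bound. By clone, the median over the 13 genes was 8.91, 8.62 and 10.5 in Δ133p53α1, Δ133p53α2 and Δ133p53α8, and 8.83 and 7.74 in Δ133p53β5 and Δ133p53β10. Over the 15367 genes with at least 0.5 CPM in each clone, the median ratio ran from 0.822 in Δ133p53α1 to 0.978 in Δ133p53α8. The rule fixed that these ratios are high, so they are a description and were not tested. Of the 277 genes that met the values in at least 1 clone, 117 did so in exactly 1 clone, 63 in 2, 35 in 3, 38 in 4 and 24 in all 5. Among the 38 that met them in 4 clones, Δ133p53α1 was the clone that missed 22 times, Δ133p53α2 6 times, Δ133p53α8 4 times and each Δ133p53β clone 3 times. Genes at the mirrored values, with the control mean at least 4 times each clone mean, numbered 121.

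The growth cone proteins BASP1 and GAP43 are membrane-bound substrates of protein kinase C that act on the actin cytoskeleton of outgrowing axons. BASP1 (ENSG00000176788, chromosome 5 from 17065598 to 17276843) was at 5.91, 2.37, 2.03 and 2.89 CPM in control replicates 1 to 4, the order used for every line here. It was at 32.4, 26.5, 25.9 and 32.7 CPM in Δ133p53α1, 17.4, 27.0, 19.8 and 29.6 CPM in Δ133p53α2, and 24.3, 24.9, 24.5 and 27.2 CPM in Δ133p53α8. Δ133p53β5 had 26.1, 26.6, 26.5 and 25.5 CPM and Δ133p53β10 had 27.9, 28.7, 15.6 and 23.6 CPM. BASP1 thus lay at nearly one level in all clones, with a ratio of only 1.25 between the highest and the lowest clone mean, the smallest among the 13 genes. Its ratio to control ran from 7.11 in Δ133p53α2 to 8.91 in Δ133p53α1. Within the negative set, where control has 1 library, the lowest ratio was 2.95, and within the positive set it was 10.4.

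GAP43 (ENSG00000172020, chromosome 3 from 115623510 to 115721490) was close to absent in control, with 0, 1, 2 and 1 reads. The clones had 13, 28, 35 and 26 reads in Δ133p53α1, 11, 8, 16 and 35 in Δ133p53α2, and 20, 68, 22 and 24 in Δ133p53α8. In Δ133p53β5 there were 26, 31, 27 and 44 reads and in Δ133p53β10 34, 27, 37 and 131. Clone means ran from 0.801 CPM in Δ133p53α2 to 2.39 CPM in Δ133p53β10. Against a floor of 3 reads per control library, GAP43 was at least 6.04-fold higher in Δ133p53α2 and at least 18.0-fold higher in Δ133p53β10, bounds that were 4.02 without Δ133p53α2 replicate 4 and 10.7 without Δ133p53β10 replicate 4. The floor covers counting error only, and reads without molecular identifiers are not independent molecules.

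Of the 13 genes, 6 were found in RefSeq's promoter table for GRCh38.p14 (BASP1, ERC2, RSPO4, GAP43, COL4A6 and GDNF-AS1), in 8 windows of 300 bases, from 250 bases before to 50 after a start site. CDYL2, LRRC4C, PTCHD1, WNT7B and the 3 RNAs without a symbol were the others. The 250 bases before the start site of the 2 growth cone genes are shown because the promoters of the pair differ in base composition, BASP1 at chr5:17216573-17216822 on the plus strand and GAP43 at chr3:115623260-115623509 on the plus strand. Capitals mark, on either strand, the CCAAT box and the GC box, whose letters are GGGCGG.
BASP1: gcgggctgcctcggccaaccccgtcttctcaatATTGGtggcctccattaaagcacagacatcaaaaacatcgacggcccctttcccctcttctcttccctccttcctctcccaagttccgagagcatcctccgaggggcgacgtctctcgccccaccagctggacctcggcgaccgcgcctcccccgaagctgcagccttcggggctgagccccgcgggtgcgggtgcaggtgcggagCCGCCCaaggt
GAP43: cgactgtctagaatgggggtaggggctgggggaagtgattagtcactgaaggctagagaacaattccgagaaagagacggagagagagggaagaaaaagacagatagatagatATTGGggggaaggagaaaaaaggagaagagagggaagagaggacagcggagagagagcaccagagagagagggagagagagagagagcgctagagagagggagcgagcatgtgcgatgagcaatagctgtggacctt
The BASP1 window held 66.7% G and C and 27 CpG dinucleotides, 0.834 of the number its bases would give in random order. The GAP43 window held 52.7% G and C and 7 CpG dinucleotides, 0.509 of that number, beside medians of 58.7% and 0.579 over 35116 promoters. Each held 1 CCAAT box, at position -217 from the start site in BASP1 and at -137 in GAP43.

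Among the promoters of the other genes, windows of ERC2, RSPO4 and GDNF-AS1 were rich in CpG as well, so that 5 of the 8 windows passed a CpG ratio of 0.6, which 48.9% of all promoters pass. Searched on both strands, a CCAAT box was in 3 of the 8 windows (34.6% of all promoters), a GC box in 5 (45.0%), an E-box of the letters CACGTG in 1, RSPO4 (7.26%), and an AP-1 site of the letters TGANTCA in 1, ERC2 (7.71%). A TATA box of the letters TATAAA (11.5%), the half-site TGACG of the cyclic AMP response element (24.6%) and a p53 half-site (6.63%) were in none of the 8. These are matches of letters within short windows, and nothing about binding can be drawn from them.

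The synaptic genes LRRC4C and ERC2 were the next group. LRRC4C encodes netrin-G ligand 1, an adhesion protein of the postsynaptic membrane, and ERC2 encodes a scaffold of the presynaptic active zone. LRRC4C (ENSG00000148948, chromosome 11 from 40114203 to 41459773) had 1, 9, 2 and 4 reads in control, 0.181 CPM ± 0.164 (SD, n = 4). It was at 6.45, 3.80, 2.45 and 1.36 CPM in Δ133p53α1, 3.05, 8.15, 8.18 and 3.30 CPM in Δ133p53α2, and 15.1, 2.24, 14.7 and 16.4 CPM in Δ133p53α8. Of the Δ133p53β clones, Δ133p53β5 was at 10.2, 8.30, 7.47 and 2.56 CPM and Δ133p53β10 at 10.7, 4.27, 2.69 and 6.41 CPM. The ratio to control ran from 19.4 in Δ133p53α1 to 66.9 in Δ133p53α8, and without control replicate 2, which held 9 of the control reads, it ran from 33.5 to 115. In Δ133p53α8 replicate 2 was low and the other 3 were close to each other.

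ERC2 (ENSG00000187672, chromosome 3 from 55508311 to 56469095) was at 0.433, 0.638, 0.460 and 0.504 CPM in control. Its libraries were at 2.20, 2.67, 2.08 and 1.63 CPM in Δ133p53α1, 3.68, 4.83, 5.10 and 3.94 CPM in Δ133p53α2, and 4.29, 2.79, 5.40 and 4.46 CPM in Δ133p53α8. Δ133p53β5 had 3.38, 3.19, 3.89 and 2.15 CPM and Δ133p53β10 had 3.36, 3.13, 2.17 and 2.54 CPM. ERC2 thus lay lowest in Δ133p53α1 (a ratio of 4.22, just inside the 4-fold limit) and highest in Δ133p53α2 (8.62), with both Δ133p53β clones between.

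PTCHD1 encodes a Patched-domain membrane protein encoded on the X chromosome, whose loss is linked to intellectual disability and autism. PTCHD1 (ENSG00000165186, chromosome X from 23334849 to 23404374) was at 0.355, 1.00, 0.322 and 0.871 CPM in control. It was at 9.61, 3.03, 3.54 and 3.77 CPM in Δ133p53α1, 2.36, 6.87, 5.33 and 5.68 CPM in Δ133p53α2, and 9.46, 4.61, 8.38 and 11.7 CPM in Δ133p53α8. It was at 8.63, 6.02, 5.41 and 2.47 CPM in Δ133p53β5 and 8.01, 3.91, 2.53 and 5.28 CPM in Δ133p53β10. Its ratio to control lay between 7.74 and 8.83 in all clones except Δ133p53α8, where it was 13.4.

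The Wnt pathway was represented by the ligand WNT7B, which acts in lung development among other tissues, and by RSPO4, an R-spondin, a secreted protein that raises the response of cells to Wnt ligands. RSPO4 (ENSG00000101282, chromosome 20 from 958452 to 1002311) had 2, 2, 9 and 1 reads in control. It was at 3.66, 2.53, 4.53 and 5.44 CPM in Δ133p53α1, 1.95, 1.37, 1.88 and 1.93 CPM in Δ133p53α2, and 2.28, 2.15, 1.37 and 1.67 CPM in Δ133p53α8. In Δ133p53β5 it was at 2.01, 1.87, 1.15 and 3.15 CPM and in Δ133p53β10 at 1.197, 2.30, 2.095 and 1.81 CPM. RSPO4 was highest in Δ133p53α1, at 25.7 times control, with the other 4 clones from 11.3 to 12.98 times. Control replicate 3 held most of the control reads, and without it Δ133p53α1 was at 56.2 times control and the other clones from 24.8 to 28.4 times.

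WNT7B (ENSG00000188064, chromosome 22 from 45920366 to 45977162) was at 0.197, 0.364, 0.506 and 0.229 CPM in control. It was at 0.595, 0.904, 0.952 and 4.90 CPM in Δ133p53α1, 1.18, 1.37, 0.965 and 5.04 CPM in Δ133p53α2, and 0.777, 3.70, 0.366 and 0.697 CPM in Δ133p53α8. Levels were 1.69, 1.23, 1.33 and 5.21 CPM in Δ133p53β5 and 2.35, 1.47, 2.81 and 2.70 CPM in Δ133p53β10. In 4 of the 5 clones 1 library was thus far above the other 3, and the lowest Δ133p53α8 library lay within the control range. Without Δ133p53α1 replicate 4, Δ133p53α2 replicate 4 or Δ133p53α8 replicate 2 WNT7B no longer met the rule, and it was also lost without control replicate 1 or 4. Within the positive set the lowest clone was at 1.62 times control.

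COL4A6 encodes the alpha 6 chain of type IV collagen, the network-forming collagen of basement membranes. COL4A6 (ENSG00000197565, chromosome X from 108155607 to 108439497) had 6, 2, 4 and 2 reads in control. It was at 3.98, 1.54, 1.36 and 2.04 CPM in Δ133p53α1, 0.546, 0.774, 1.42 and 2.20 CPM in Δ133p53α2, and 1.87, 2.38, 2.61 and 2.74 CPM in Δ133p53α8. Both Δ133p53β clones were lower, Δ133p53β5 at 0.822, 0.456, 0.870 and 0.685 CPM and Δ133p53β10 at 1.15, 0.552, 0.158 and 0.565 CPM. Clone means ran from 0.606 CPM in Δ133p53β10 to 2.40 CPM in Δ133p53α8, a ratio of 3.96, the widest among the 13 genes. Δ133p53β10 replicate 3, with 4 reads, lay within the control range. COL4A6 was the member nearest the limit, at 4.02 times control in Δ133p53β10, and it was lost from the rule without control replicate 2 or 4 or without Δ133p53β10 replicate 1. Within the negative set its lowest ratio was 1.80, and within the positive set 6.72.

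COL4A6 starts 341 bases from COL4A5, which encodes the alpha 5 chain and is transcribed in the opposite direction. COL4A5 was the only 1 of 7 flanking genes that reached 0.5 CPM on average to pass 2-fold in all 5 clones, and 0.713% of the 16540 genes at that level did so. It was at 1.23 CPM ± 0.851 (SD, n = 4) in control, the 3 Δ133p53α clone means were 3.16, 4.04 and 6.02 CPM, in the order named above, and those of Δ133p53β5 and Δ133p53β10 were 3.30 and 4.70 CPM. The Δ133p53α1 libraries were at 7.64, 1.99, 1.04 and 1.95 CPM. All of them except replicate 1 lay within the control range of 0.473 to 2.44 CPM, as did single libraries of Δ133p53α2, Δ133p53β5 and Δ133p53β10. COL4A5 was below 4 times control in 4 of the 5 clones and so was no member. Its mean over the 5 clones was higher than control by 1.88 on the log2 scale (edgeR, standard error 0.473, adjusted p = 0.0107). As a neighbour COL4A5 was named because it passed 2-fold against control, so this test of the same contrast adds no support. In each clone except Δ133p53β5, the library with the most COL4A6 was also the library with the most COL4A5, as the plot of the pair by library shows. Those libraries were all in the positive length set. Control differed, with the most COL4A6 (6 reads) and the least COL4A5 (12 reads) in replicate 1. Control replicate 3 held the most COL4A5 (53 reads) and the next most COL4A6 (4 reads).

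The 250 bases before each start site are shown because the windows share sequence, COL4A6 at chrX:108439459-108439708 on the minus strand and COL4A5 at chrX:108439588-108439837 on the plus strand. Capitals mark CCAAT boxes on either strand and, in COL4A5, the half-site of the cyclic AMP response element.
COL4A6: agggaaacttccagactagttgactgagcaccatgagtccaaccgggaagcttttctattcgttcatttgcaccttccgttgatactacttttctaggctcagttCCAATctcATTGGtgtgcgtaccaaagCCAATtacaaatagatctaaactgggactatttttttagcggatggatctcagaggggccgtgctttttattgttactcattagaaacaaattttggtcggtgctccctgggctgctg
COL4A5: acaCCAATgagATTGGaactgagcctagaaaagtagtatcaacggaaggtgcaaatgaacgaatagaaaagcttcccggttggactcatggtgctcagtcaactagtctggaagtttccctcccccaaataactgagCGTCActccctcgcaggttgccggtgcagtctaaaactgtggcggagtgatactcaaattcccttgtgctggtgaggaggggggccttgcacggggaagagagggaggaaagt
The windows overlap by 121 bases, from 108439588 to 108439708, and the pair of CCAAT boxes that open the COL4A5 sequence are those at -145 and -137 from the start site of COL4A6. The COL4A6 window held 43.7% G and C and 3 CCAAT boxes.

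**Figure D2:**
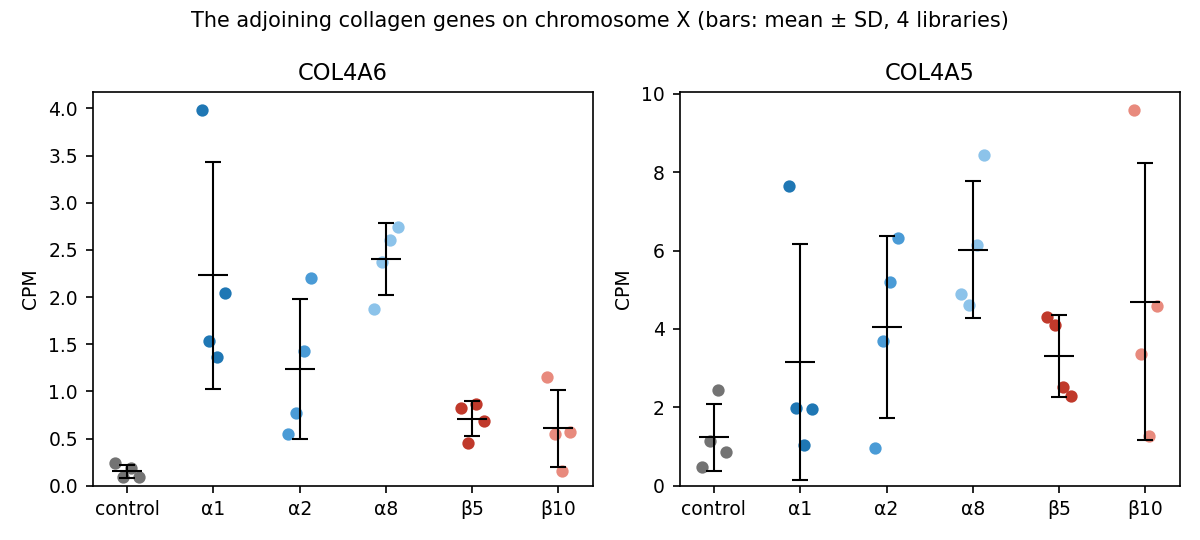
COL4A6 (left) and COL4A5 (right) in CPM, with 1 point per library and bars at the mean ± SD of the 4 libraries of a line. Control means were 0.151 and 1.23 CPM, and COL4A6 was lowest among the clones in Δ133p53β10 while COL4A5 was lowest in Δ133p53α1.

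CDYL2 encodes a chromodomain protein that binds methylated lysine 9 of histone H3. CDYL2 (ENSG00000166446, chromosome 16 from 80597907 to 80804598) was at 0.552, 1.05, 1.197 and 0.963 CPM in control. It was at 11.8, 4.30, 3.90 and 3.36 CPM in Δ133p53α1, 4.32, 11.5, 12.8 and 12.6 CPM in Δ133p53α2, and 4.61, 2.604, 4.03 and 5.06 CPM in Δ133p53α8. In Δ133p53β5 it was at 18.2, 12.3, 11.8 and 15.9 CPM and in Δ133p53β10 at 29.2, 15.3, 8.06 and 6.94 CPM. Both Δ133p53β clone means, at 14.5 and 14.9 CPM, were above the highest Δ133p53α mean of 10.3 CPM, and single libraries of the isoforms overlapped. The ratio to control ran from 4.34 in Δ133p53α8 to 15.8 in Δ133p53β10. Without control replicate 1 or Δ133p53α8 replicate 4 CDYL2 fell outside the rule.

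The noncoding RNAs were led by ENSG00000275216 (chromosome 13 from 109269634 to 109278512), at 2.65 CPM ± 1.19 (SD, n = 4) in control and between 6.18 and 22.4 CPM in the clone libraries. Its clone means ran from 11.2 CPM in Δ133p53α1 to 17.9 CPM in Δ133p53β5, which is 4.22 to 6.76 times control, and within the negative set the lowest ratio was 2.09. ENSG00000260328 (chromosome 17 from 17011914 to 17014990) had 5, 5, 4 and 4 reads in control. Its clone libraries were at 2.29, 1.63, 1.22 and 1.77 CPM in Δ133p53α1, 1.77, 1.46, 1.93 and 1.42 CPM in Δ133p53α2, and 1.46, 1.69, 1.97 and 1.16 CPM in Δ133p53α8. In Δ133p53β5 it was at 1.23, 0.912, 0.962 and 1.14 CPM and in Δ133p53β10 at 1.197, 0.873, 0.672 and 0.524 CPM. All clone libraries were above control, and the clone means ran from 0.817 CPM in Δ133p53β10 to 1.73 CPM in Δ133p53α1. Within the negative set the lowest ratio was 3.50.

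GDNF-AS1 (ENSG00000248587, chromosome 5 from 37811589 to 37953827) overlaps GDNF, which encodes a neurotrophic factor, on the opposite strand. It had 0, 1, 2 and 1 reads in control and between 6 and 45 in the clone libraries, with clone means from 0.546 CPM in Δ133p53α1 to 1.39 CPM in Δ133p53α8. Taken against a floor of 3 reads per control library, the clone mean of GDNF-AS1 was at least 4.12-fold higher for Δ133p53α1, the lowest line, and at least 10.5-fold higher for Δ133p53α8, the highest, and without Δ133p53α1 replicate 1 the first of these bounds was 2.62. GDNF itself was at 0.147 CPM in control and at means from 2.11 to 4.71 CPM in the clones. The libraries kept strand, but the strand setting used in counting is not given in the sources used here, so reads of overlapping genes on opposite strands are uncertain. ENSG00000286913 (chromosome 3 from 159711852 to 159731646) had from 0 to 3 reads in control and from 6 to 22 in the clone libraries, with clone means between 0.545 and 0.797 CPM, which were at least 4.11-fold higher than the same floor for Δ133p53α1 and at least 6.01-fold higher for Δ133p53β10. IQCJ-SCHIP1 overlaps it on the opposite strand, at 4.22 CPM in control and from 3.74 to 5.01 CPM in the clones. Among low genes beside or inside the 13, ENSG00000279675, at 1604 bases from LRRC4C on its strand, had 0 reads in control and means from 0.171 to 0.574 CPM in the clones. HIKESHIP1 inside PTCHD1 (0.0556 CPM in control, 0.264 to 0.408 CPM in the clones) and ENSG00000243116 inside ENSG00000286913 (0.0426 CPM in control, 0.138 to 0.228 CPM in the clones) also passed 2-fold in all 5 clones.

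**Figure D3:**
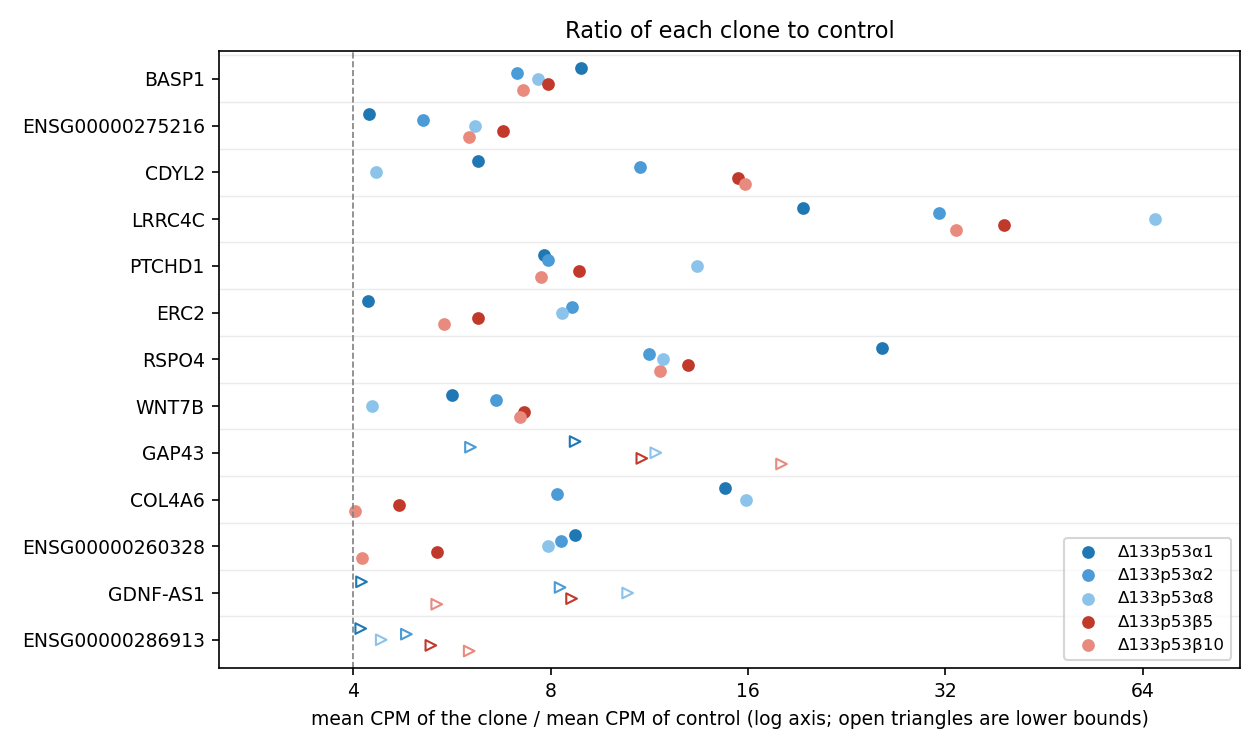
Ratio of each clone mean to the control mean for the 13 genes, on a log axis, with 1 point per clone. Open triangles are lower bounds, drawn for the 3 genes whose control libraries all had 3 reads or fewer, and the dashed line is the 4-fold limit of the rule. LRRC4C reaches 66.9 in Δ133p53α8, and RSPO4 reaches 25.7 in Δ133p53α1.

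Nearest the limits of the rule, COL4A6 (4.02), ENSG00000260328 (4.12) and ERC2 (4.22) were just inside 4 times control in their lowest clone, and the cyclin gene CCNA1 (3.98), ENSG00000236453 (3.93) and the spindle checkpoint gene MAD1L1 (3.80) were just outside. At the limit of 0.5 CPM, ENSG00000286913 (0.545 CPM), GDNF-AS1 (0.546 CPM) and COL4A6 (0.606 CPM) were inside, and APCDD1L-DT (0.470 CPM), ADAMTS18 (0.433 CPM) and NHS (0.422 CPM) were outside. Single libraries decided other members too, since ENSG00000260328 was lost without Δ133p53β10 replicate 1, ERC2 without Δ133p53α1 replicate 2, GDNF-AS1 without Δ133p53α1 replicate 1, ENSG00000286913 without Δ133p53α1 replicate 3 and ENSG00000275216 without control replicate 3. BASP1, LRRC4C, PTCHD1, RSPO4 and GAP43 met the rule without any single library.

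The study set the isoforms side by side, and the rule did not use that contrast. The Δ133p53β clones differed from the Δ133p53α clones in 3 of the 13 genes by edgeR's quasi-likelihood test, with Benjamini-Hochberg adjustment over 17990 tested genes. The p-values measure the spread between libraries, not between the few clones of an isoform. CDYL2 was higher in Δ133p53β, 1 of 13 where 2.75% of all tested genes were, and COL4A6 and ENSG00000260328 were lower, 2 of 13 where 2.68% were. CDYL2 was higher by 1.29 on the log2 scale (standard error 0.227, adjusted p = 0.000951). The log2 fold change was -1.47 for COL4A6 (standard error 0.270, adjusted p = 0.00146) and -0.79 for ENSG00000260328 (standard error 0.172, adjusted p = 0.00642). COL4A6 and ENSG00000260328 were at least 4 times control in both Δ133p53β clones because the rule required it of every member.

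**Figure D4:**
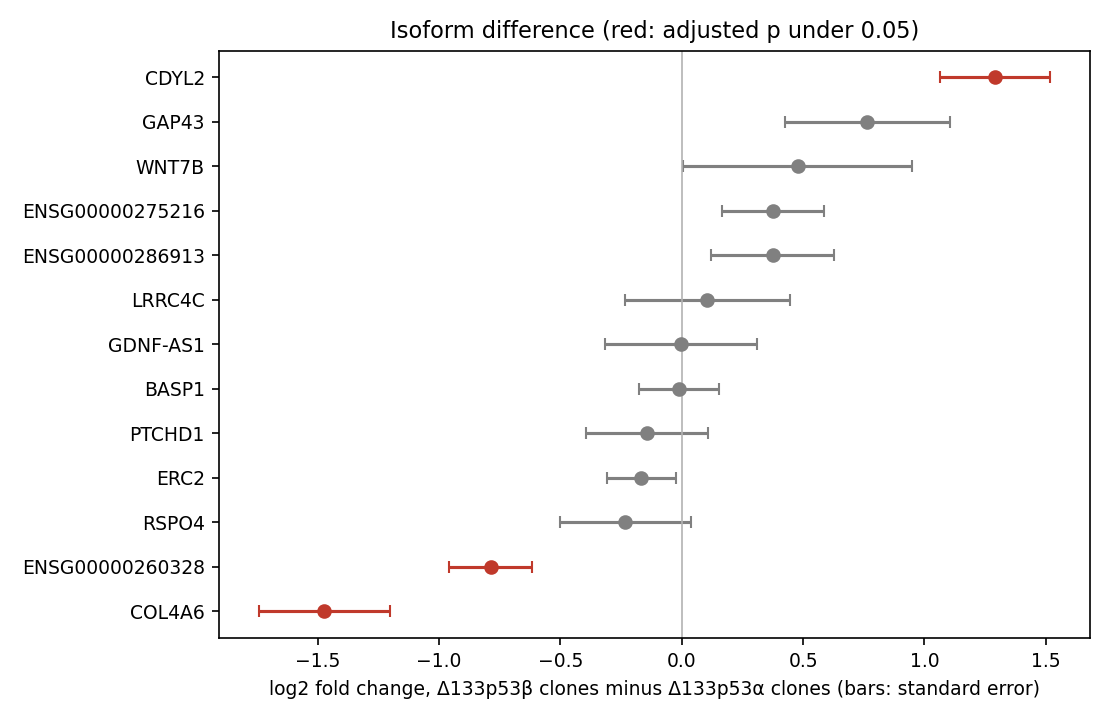
Log2 fold change of the mean of the Δ133p53β clones over the mean of the Δ133p53α clones for the 13 genes, with bars of 1 standard error. Red points have an adjusted p under 0.05 in edgeR's quasi-likelihood test, and they are CDYL2 at the top and ENSG00000260328 and COL4A6 at the bottom.

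The 2 length sets hold different shares of the isoforms, with 7 of 12 Δ133p53α and 2 of 8 Δ133p53β libraries in the positive set, so the 3 genes were also read within sets. CDYL2 was at 8.91 CPM in Δ133p53α and 23.7 CPM in Δ133p53β in the positive set, and at 3.69 and 11.7 CPM in the negative set. COL4A6 was at 2.23 and 0.987 CPM in the positive set and at 1.57 and 0.548 CPM in the negative set. ENSG00000260328 was at 1.67 and 1.22 CPM in the positive set and at 1.62 and 0.848 CPM in the negative set. The direction of each difference was the same in both sets. With the set as a term of the fit the log2 fold changes were 1.61 for CDYL2, -1.33 for COL4A6 and -0.80 for ENSG00000260328.

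**Figure D5:**
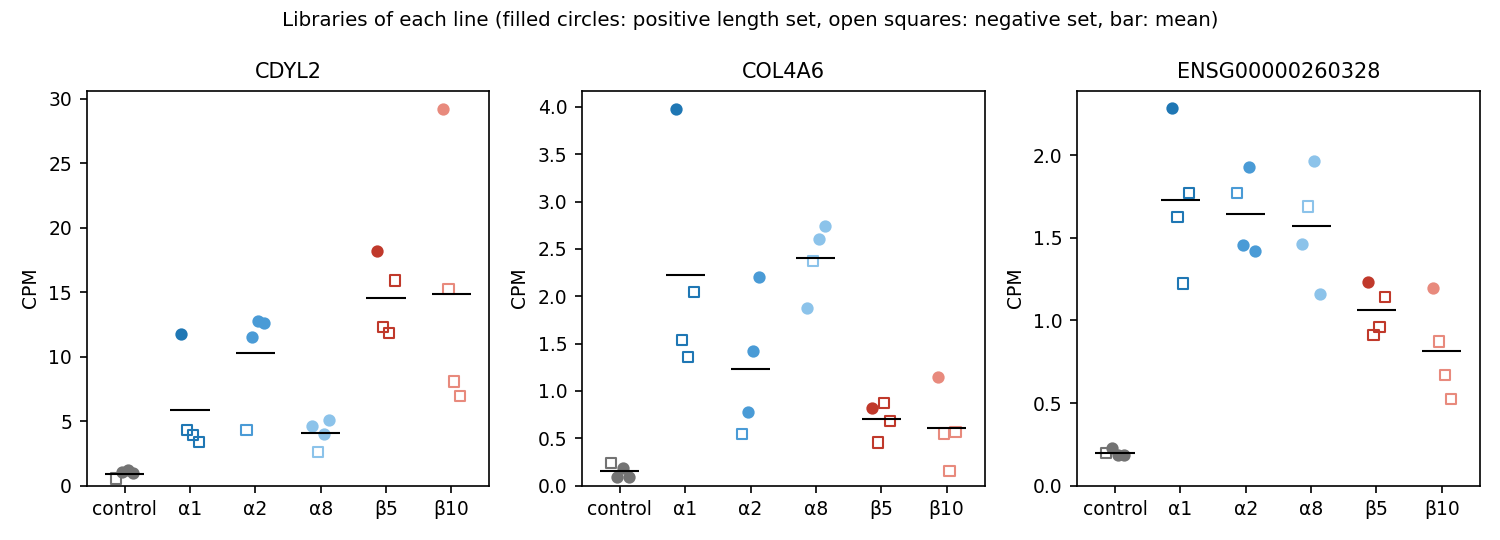
CPM of CDYL2, COL4A6 and ENSG00000260328 by line, with 1 point per library, filled circles for the positive and open squares for the negative length set, and a bar at the mean. Both Δ133p53β means lie above the 3 Δ133p53α means for CDYL2 and below them for COL4A6 and ENSG00000260328, and single libraries of the isoforms overlap in each gene.

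For the other 10 genes the test did not pass, which does not show that the isoforms act alike. GAP43 differed by 0.77 (standard error 0.341, adjusted p = 0.231 from edgeR), WNT7B by 0.48 (standard error 0.472) and ENSG00000275216 and ENSG00000286913 by 0.37 each (standard errors 0.211 and 0.255). BASP1 differed by -0.01 (standard error 0.164), GDNF-AS1 by -0.003 (standard error 0.313), LRRC4C by 0.11 (standard error 0.339), PTCHD1 by -0.14 (standard error 0.251), ERC2 by -0.17 (standard error 0.142) and RSPO4 by -0.23 (standard error 0.269). The median size of the log2 difference was 0.37 over the 13 genes and 0.23 over all tested genes.

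In the joint comparison of the 5 clones, CDYL2 (adjusted p = 0.0052 from edgeR) and COL4A6 (adjusted p = 0.00577) differed, 2 of 13 where 3.76% of all tested genes did, and ENSG00000260328 missed the threshold narrowly (adjusted p = 0.0508). The rule bounds how low a gene can be in a clone. In the comparisons within an isoform 0 of the 13 genes passed by edgeR. Among the 3 Δ133p53α clones 0.956% of all tested genes differed, and 6 of the 13 had an unadjusted p under 0.05, where 16.0% of all tested genes did (5 of 13 by limma, which also called 0 of the 13, where 16.3% did). Between Δ133p53β10 and Δ133p53β5 edgeR called 0% of all tested genes, and 0 of the 13 genes had an unadjusted p under 0.05 by edgeR, limma or DESeq2, where 270, 250 and 327 of the 17990 tested genes did. After adjustment limma called 0 of all tested genes and DESeq2 5. Between the highest and the lowest clone mean the 13 genes spanned from 1.25-fold to 3.96-fold, with a median of 2.11. Both Δ133p53β means were above all Δ133p53α means in CDYL2, WNT7B and ENSG00000286913 and below them in COL4A6 and ENSG00000260328. The share of all genes with such an order was not taken, so nothing about the 13 genes is drawn from it. The WNT7B means of Δ133p53α1, Δ133p53α2, Δ133p53α8 and Δ133p53β5 were each raised by 1 library.

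Libraries of a line differed with the length sets. CDYL2, LRRC4C, PTCHD1, ERC2 and GDNF-AS1 had a higher mean in the positive than in the negative set in all 6 lines, by a median ratio of 2.39 for CDYL2, 2.47 for LRRC4C, 2.097 for PTCHD1, 1.24 for ERC2 and 2.59 for GDNF-AS1. COL4A6 and ENSG00000275216 were higher in the positive set in 5 of 6 lines (1.82 and 1.32) and BASP1 and ENSG00000260328 in 4 (1.08 and 1.12). The order was mostly the other way in RSPO4, higher in 1 of 6 lines (0.880), and in GAP43 (0.588) and ENSG00000286913 (0.976), each higher in 2, and WNT7B was higher in 3 (0.831). These are descriptions of single libraries, and the part of the sets in the difference from control was not tested. The sets were defined by a trend across genes, and the share of all genes with each order was not taken. These orders are therefore not shown to be particular to the 13 genes. By the rule in the positive set alone 20 genes were found, with 12 of the 13 among them and WNT7B lost, and in the negative set alone, which has 1 control library, 31 genes with 7 of the 13.

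Genes that were not among the 13 were read from 15 lists, chosen with earlier results of these data known, which therefore support nothing by themselves. Only the growth cone, synaptic, collagen and R-spondin lists held any of the 13, and the other lists have no shown relation to them. Of 249 such genes 146 were tested against control in the mean of the 5 clones, and 27 were higher and 12 lower, where 4.25% and 7.07% of all tested genes were. Leaving out each library in turn, 21 of the 27 and 4 of the 12 passed every time. Without control replicate 3 only 5 list genes were lower, 4 of the 12 among them (NPAS2, FGF5, NKD2 and TEF), and 22 of the 27 were still higher. The median log2 fold change was -0.03 over these list genes and -0.01 over all tested genes.

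Of 26 tested p53 targets and family members, 3 were higher and 2 lower. CDKN1A, the cell cycle inhibitor p21, was at 53.4 CPM in the clones and 37.2 in control (log2 fold change 0.71, adjusted p = 0.0477 from edgeR), RPRM at 3.57 and 0.913 CPM and PLK3 at 19.9 and 11.9 CPM. The call of CDKN1A was lost without any 1 of 16 of the 24 libraries, and that of PLK3 without control replicate 2 or 4. The stress cytokine gene GDF15 was at 20.6 CPM in control and 3.50 in the clones, but control replicate 3 alone was at 79.1 CPM, and without it control was at 1.07 CPM, below the clones (log2 fold change 1.03, adjusted p = 0.615 from edgeR). The death receptor gene TNFRSF10B was at 100.4 CPM in control and 49.9 in the clones, and its call too was lost without that library. Of 11 tested growth cone genes, NRN1, which encodes neuritin, was at 33.0 CPM in the clones and 9.32 in control, DPYSL5 rose from 1.65 to 3.53 CPM and CRMP1 fell from 21.3 to 10.5 CPM, a call lost without control replicate 3. Of 10 synaptic genes, SLITRK3, with 0 reads in control, rose to 0.299 CPM, and BSN, a scaffold of the active zone, fell from 3.39 to 1.08 CPM, also lost without control replicate 3. Of 7 tested collagen genes COL4A5 and COL16A1 (1.28 to 5.21 CPM) rose and none fell. In the list of R-spondins and Wnt feedback genes, 9 were tested, LEF1 rose from 10.5 to 18.8 CPM (not called without control replicate 3) and NKD2, an inhibitor of Wnt signalling, fell from 5.12 to 1.55 CPM.

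Keratin genes KRT8 (617 to 2028 CPM), KRT18 (723 to 1581 CPM) and KRT34 (0.237 to 1.29 CPM) rose among 6 tested, and none fell. MAD1L1 (log2 fold change 3.68) and CCNA1 (2.65) rose among 12 genes of the spindle checkpoint and mitotic cyclins. Of 6 germ cell genes YBX2, TCP11 and SUN3 rose, with SUN3 from 1.75 to 10.4 CPM. Among 8 FGF ligands and receptors FGF1 rose from 5.80 to 26.2 CPM, and FGF5 (68.2 to 21.0 CPM) and FGFRL1 fell. Among 16 clock genes CIART rose from 1.60 to 5.40 CPM, and NPAS2 (3.28 to 0.195 CPM), TEF and NR1D1 fell. CAMK2N1, PPP1R1C and PPP1R14A rose among 9 regulators of CaMKII and protein phosphatase 1. CREB3 and CREB3L1 rose among 10 genes of their list, and KCNK13 among 5 potassium channel genes. NMNAT3 rose and NMNAT2 fell among 7 genes of NAD synthesis, and NMU rose and NTSR1 fell among 4 neuromedin genes. Of these, KRT18, FGFRL1, NR1D1, NTSR1, NMNAT2, CREB3 and PPP1R14A were not called without control replicate 3. CREB3 and PPP1R14A were also lost without control replicate 2 or 4, NR1D1 without control replicate 2, and NMNAT2 without control replicate 2 or Δ133p53α2 replicate 2. The control mean of NPAS2 was 2.097 CPM without control replicate 3.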

How the data were processed

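The authors sequenced strand-specific poly(A) libraries of H1299 lines, trimmed the reads (Cutadapt), mapped them to the GRCh38 genome (HISAT2) and counted exonic reads per gene (featureCounts). The read counts were deposited by the authors without normalization, with 1 row without a gene name (0 reads) left out. The genes and all lists were chosen with earlier results of these data known. Of 14 genes that met the rule 1 is not reported here, and counts are over the other 13. CPM was the count over the column total. Each of the 13 was named. Values in each library are given for the protein-coding members and ENSG00000260328, which the isoform test called, and ranges for the others. Of each list up to 3 genes per direction were named, as were the 3 genes on each side of a limit. Of the members without a symbol, the third was named to account for every member, after its values were seen.

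Contrasts that the rule did not use were tested in R 4.3.3 with edgeR 4.0.16 (TMM, filterByExpr, quasi-likelihood fit of 6 groups, Benjamini-Hochberg adjustment, threshold 0.05), over 17990 genes, all 13 members included. The standard error was the log2 fold change over the root of F. Clone against control was tested only for genes outside the 13. Alternatives used DESeq2 1.42.0, limma 3.58.1 voom, other scalings, filters, limits and sets, a replicate block and each library left out. The comparisons within an isoform were chosen after seeing the data. Where control libraries all had 3 counts or fewer, ratios were taken against 3 counts per library. Totals of 21531599 to 25381731 reads set the precision at low counts. Positions are from GENCODE v44, and 398 of the 60563 genes matched no entry by symbol or identifier. No library repeated another of its own line: chi-square per degree of freedom was 16.3 or more in each of 36 pairs within a line. Pairs across lines were not compared.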

Additional observations from a re-analysis of the deposited data

Results flagged for a closer look

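In a group of 4 libraries, 1 library stood far from the other 3 in 13 of the 78 groups of the 13 genes. The cutoff was set to mark about 1 group in 20 by chance, but the groups share the same libraries and their length sets. The share over all genes was not taken, so nothing about the 13 genes is drawn from this count. WNT7B did so in 4 clones, at 4.90 CPM in Δ133p53α1 replicate 4 (others at most 0.952), 5.04 in Δ133p53α2 replicate 4 (others at most 1.37), 3.70 in Δ133p53α8 replicate 2 (others at most 0.777) and 5.21 in Δ133p53β5 replicate 4 (others at most 1.69), the last being the library whose clone the labels give differently. GAP43 was at 3.11 CPM in Δ133p53α8 replicate 2 (others at most 1.12) and at 5.28 in Δ133p53β10 replicate 4 (others at most 1.57).

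CDYL2 was at 11.8 CPM in Δ133p53α1 replicate 1 (others at most 4.30) and at 4.32 in Δ133p53α2 replicate 1 (others at least 11.5). PTCHD1 at 9.61 CPM and GDNF-AS1 at 1.14 CPM were high in the same Δ133p53α1 replicate 1. LRRC4C was low in Δ133p53α8 replicate 2, at 2.24 CPM (others at least 14.7). The Δ133p53α1 replicate 1, Δ133p53α2 replicate 1 and Δ133p53α8 replicate 2 libraries were each the only library of their clone in its length set. RSPO4 was at 0.414 CPM in control replicate 3, from 9 reads (others at most 0.0911), and at 1.37 in Δ133p53α2 replicate 2 (others at least 1.88).

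The Δ133p53β clones differed from the Δ133p53α clones by edgeR's quasi-likelihood test in CDYL2 (log2 fold change 1.29), COL4A6 (-1.47) and ENSG00000260328 (-0.79), with adjusted p from 0.000951 to 0.00642. These p-values measure the spread between libraries, not between clones.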

How the results depend on the processing

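The number of genes that met the rule was 13. It was 8 at a minimum of 1 CPM, 24 at 0.2 CPM, 82 at 2 times control, 5 at 8 times control 20 in the positive length set alone and 31 in the negative. With library sizes scaled by TMM or by DESeq2 there were 19, all 13 among them, and medians in place of means gave 13, of which 10 were shared. Leaving out single libraries gave from 11 to 22 genes, with 22 without control replicate 3, 12 of the 13 among them. The counts of 1 gene higher and 2 lower in Δ133p53β held without each library (1 to 1 and 2 to 2), by DESeq2, limma voom and RLE, without a filter, at a mean of 1 CPM, with the set as a term and with the library of unclear clone moved or left out. A log2 fold change of at least 1.5 as well left 0 higher and 0 lower. Genes differing among the 5 clones numbered 5 by DESeq2 and from 2 to 3 without single libraries. The shares of all tested genes in these fits were not taken, so the counts cannot be set against them. Within the Δ133p53α or the Δ133p53β clones alone the number was 0. List genes higher in the clones ran from 22 to 29 without single libraries and those lower from 5 (without control replicate 3) to 18, and 19 were lower without a filter. The cause of these shifts was not tested.

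Over the 13 genes, 440 alternative values of the isoform difference stayed on the same side of the threshold. Their direction was not always kept, since the sign changed among the alternatives in BASP1, LRRC4C, PTCHD1 and GDNF-AS1. None of these genes was called in any alternative. The 3 called differences passed in each of 34 alternatives, with a highest adjusted p of 0.0444, for ENSG00000260328, from edgeR, limma or DESeq2. With the replicate number as a block, 2 of the 13 genes differed among clones, 1 was higher and 2 lower in Δ133p53β, and 24 list genes were higher and 10 lower. Same-numbered libraries of different lines correlated from -0.886 to 0.893, with a median of -0.02, and 7 of 24 correlated best with their own number. No pairing by number was seen. The comparison cannot exclude it, because the length sets fall on different replicate numbers in different lines and may enter these correlations. At this depth, members with fewer than 10 reads in control have ratios that single reads can move.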
